A study of Mus musculus with 20 samples.

Results

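The miR-1 and miR-133 family of muscle microRNAs was followed through 20 small RNA libraries from mouse hearts. Its members were taken by name from the authors' table of microRNA (miRNA) levels: miR-1a-3p, miR-1b-5p, miR-133a-3p, miR-133a-5p and miR-133b-3p, which make 5 of 1545 entries (1427 of them with miRBase names). All 5 passed the filter on low values and are among the 360 miRNAs tested. The miR-1b-5p entry is not a separate measurement. Its hairpin lies opposite the Mir1a-2 hairpin on the other strand of the same stretch of DNA, and no library showed a gap of more than 0.223% between the values of these entries. The same reads thus stand under both names, and the family has 4 independent rows.

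The hearts came from C57BL/6J mice in 4 groups: MI+CIH (n = 7), MI (n = 4), CIH (n = 4) and sham (n = 5). Both abbreviations are the labels' own, without expansion, and hearts are numbered as there. MI is read as myocardial infarction. CIH is read as chronic intermittent hypoxia, in which animals breathe air that drops in oxygen again and again, as a model of sleep-disordered breathing. The labels name no age, sex, infarct size or time after surgery, and the tissue is heart without a region. Nothing in them says that libraries came from separate animals or litters, so p-values measure the spread between these libraries. A numbered or counted heart below means a library.

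miR-1 and miR-133 are the classical miRNAs of striated muscle. They are made from shared precursor transcripts that the muscle regulators SRF and MEF2 switch on, with miR-1 favouring differentiation of muscle cells and miR-133 holding back growth and smooth muscle genes, SRF among its targets. In heart muscle cells they are abundant, and miR-1 in particular is used as a sign of cardiac muscle RNA. A hairpin precursor gives a 5p and a 3p arm, of which one is usually kept in the silencing complex in large excess, the 3p arm for miR-1 and miR-133.

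Mature sequences were matched for 1 of the 5 members in RefSeq (GRCm38.p6). It is shown with that of its neighbour miR-206-3p, a skeletal muscle relative of miR-1, and with the discarded 5p arm of Mir1a-1, since levels of all 3 follow. Mir133b (chromosome 1, 20682769 to 20682887) and Mir206 (20679010 to 20679082) lie on the plus strand of chromosome 1, and Mir1a-1 (180389048 to 180389124) lies on the plus strand of chromosome 2 beside Mir133a-2 (180398379 to 180398482), in the annotation GENCODE M21 (GRCm38). Capitals mark the seed, bases 2 to 8 from the 5′ end, which pairs with target mRNAs.
miR-133b-3p (chr1:20682834-20682855, plus strand): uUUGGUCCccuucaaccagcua
miR-206-3p (chr1:20679055-20679076, plus strand): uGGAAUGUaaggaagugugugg
miR-1a-1-5p (chr2:180389057-180389079, plus strand): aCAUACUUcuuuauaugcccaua

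Levels are given in RPM, the reads of an entry in each 1000000 reads assigned to miRNAs in that library, and no length enters them. Libraries summed to 1991323 to 18138415 reads, and 1 read was worth 0.0551 to 0.502 RPM. Clustered on the tested miRNAs outside the family and its relatives, the libraries formed 3 sets, which no label mentions. MI+CIH 1 and MI 2 fell in set A together with the whole of the CIH and sham groups. Set B was made of MI+CIH 2, 3, 4 and 5 with MI 1 and 3, and set C of MI+CIH 6 and 7 with MI 4. Pearson's r between libraries was 0.904 to 0.994 within sets (73 pairs) and 0.690 to 0.927 between sets (117 pairs). Read totals were lower in set B (1991323 to 9175110) than in set C (12177044 to 18138415), with set A between 5700599 and 18014081. Sham and CIH hearts are in set A alone, so in comparisons with them the set and the infarct cannot be told apart except through MI 2 and MI+CIH 1.

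miR-1a-3p was the most abundant miRNA of these hearts, with a mean of 21.96% of reads over the 20 libraries. Without the second copies of entries in the total, its share ran from 7.51% to 46.0%. After its copy came the smooth muscle miRNA miR-143-3p (17.6%), miR-148a-3p (4.02%), miR-378a-3p (3.61%) and miR-21a-5p, known from fibrosis (3.16%). miR-133a-3p ranked 16th of all entries at 0.731% of reads, miR-133a-5p ranked 89th with a mean of 241 RPM and miR-133b-3p ranked 108th with 164 RPM. Relative to its level, miR-1a-3p varied little between libraries: its coefficient of variation was 34.7%, and 1.67% of the tested miRNAs had a lower one (median 102%). That of miR-133a-5p was 46.3%, that of miR-133b-3p 80.6% and that of miR-133a-3p 93.8%.

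miR-1a-3p had a lowest value of 69203 RPM in MI+CIH hearts, a median of 141425 RPM and a highest value of 262684 RPM. The 4 MI hearts had 161002, 293893, 150800 and 287381 RPM, and the 4 CIH hearts 245804, 281399, 314224 and 308132 RPM. Sham hearts had 189056, 268876, 267785, 272753 and 261221 RPM. The 4 lowest values belong to MI+CIH 2 to 5, all of set B, and the 2 MI hearts of that set came next to them. MI+CIH overlapped each other group, with MI+CIH 6 and 7 of set C near the sham level. Group means were 155624 ± 72780 RPM in MI+CIH, 223269 ± 77947 RPM in MI, 287390 ± 31175 RPM in CIH and 251938 ± 35396 RPM in sham (SD). From low to high the order was MI+CIH, MI, sham and CIH, and neighbours in it overlapped within 1 SD. In whole heart RNA, fewer muscle cells and less of a miRNA per muscle cell cannot be told apart. Counting error is negligible here, since the library with the fewest miR-1a-3p reads still held 204998 of them.

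miR-133a-3p, the main miR-133 product, had its highest values in set B, whose hearts had the lowest miR-1a-3p. Outside set B the rows did not mirror each other: MI+CIH 1 and sham 1, the next lowest in miR-1a-3p (178754 and 189056 RPM), had 2776 and 2451 RPM of miR-133a-3p. In MI+CIH hearts its lowest value was 2776 RPM, its median 8427 RPM and its highest 23097 RPM. The MI hearts had 22118, 2846, 12229 and 6725 RPM. CIH hearts had 2629, 2704, 1533 and 3297 RPM, and sham hearts 2451, 3637, 3107, 2684 and 2821 RPM. The 6 highest values were thus all from infarcted hearts of set B, the next 3 from infarcted hearts of set C, and the infarcted hearts of set A (MI+CIH 1 and MI 2) lay inside the sham range. Set means were 2771 ± 531 RPM in A (n = 11), 16261 ± 5934 RPM in B (n = 6) and 6019 ± 690.3 RPM in C (n = 3). Group means were 11047 ± 7547 RPM in MI+CIH, 10979 ± 8364 RPM in MI, 2541 ± 735 RPM in CIH and 2940.1 ± 456 RPM in sham. MI+CIH and MI did not differ beyond their spread, nor did CIH and sham, and the MI mean was 7266 RPM without MI 1 and 13690.4 RPM without MI 2.

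miR-133a-5p, the arm of the same hairpins that is usually discarded, did not follow its 3p partner. MI+CIH hearts ran from 54.2 RPM (108 reads) through a median of 189.9 RPM to a highest value of 235 RPM. MI hearts had 212, 423, 107 and 245 RPM, CIH hearts 385, 333, 143 and 372 RPM, and sham hearts 259, 243, 366, 301 and 377 RPM. Every MI+CIH heart thus lay below every sham heart, the only row of the family whose groups did not overlap in that comparison. Over all tested miRNAs 55 of 360 (15.3%) did not overlap there. The gap for miR-133a-5p was narrow. MI+CIH 1 had 235 RPM (exact 95% interval for counting error 228 to 242) and sham 2 had 243 RPM (232 to 254), so these intervals overlap. No member separated MI+CIH from CIH (28.3% of all tested did), MI+CIH from MI (0.278%), MI from sham (5.28%) or CIH from sham (2.78%). Group means were 150.1 ± 73.1 RPM in MI+CIH, 247 ± 132 RPM in MI, 308 ± 112 RPM in CIH and 309 ± 60.8 RPM in sham, and neighbours in that order lay within 1 SD of each other.

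miR-133b-3p had no such order. It is a near-identical paralogue of miR-133a-3p, and how the authors' counting divided reads that fit both is not given in the sources used here, so the split between these entries is uncertain. MI+CIH hearts ran from 27.6 RPM (55 reads, exact 95% interval for counting error 20.8 to 35.95) to 513 RPM, with a median of 130.3 RPM. MI hearts had 458, 96.0, 88.3 and 141 RPM, CIH hearts 188, 93.9, 33.9 and 106 RPM, and sham hearts 194, 191, 107, 95.8 and 123 RPM. All groups overlapped, and set B alone held both the lowest and the 3 highest values. The MI mean of 196 ± 176 RPM was 109 RPM without MI 1.

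**Figure D1:**
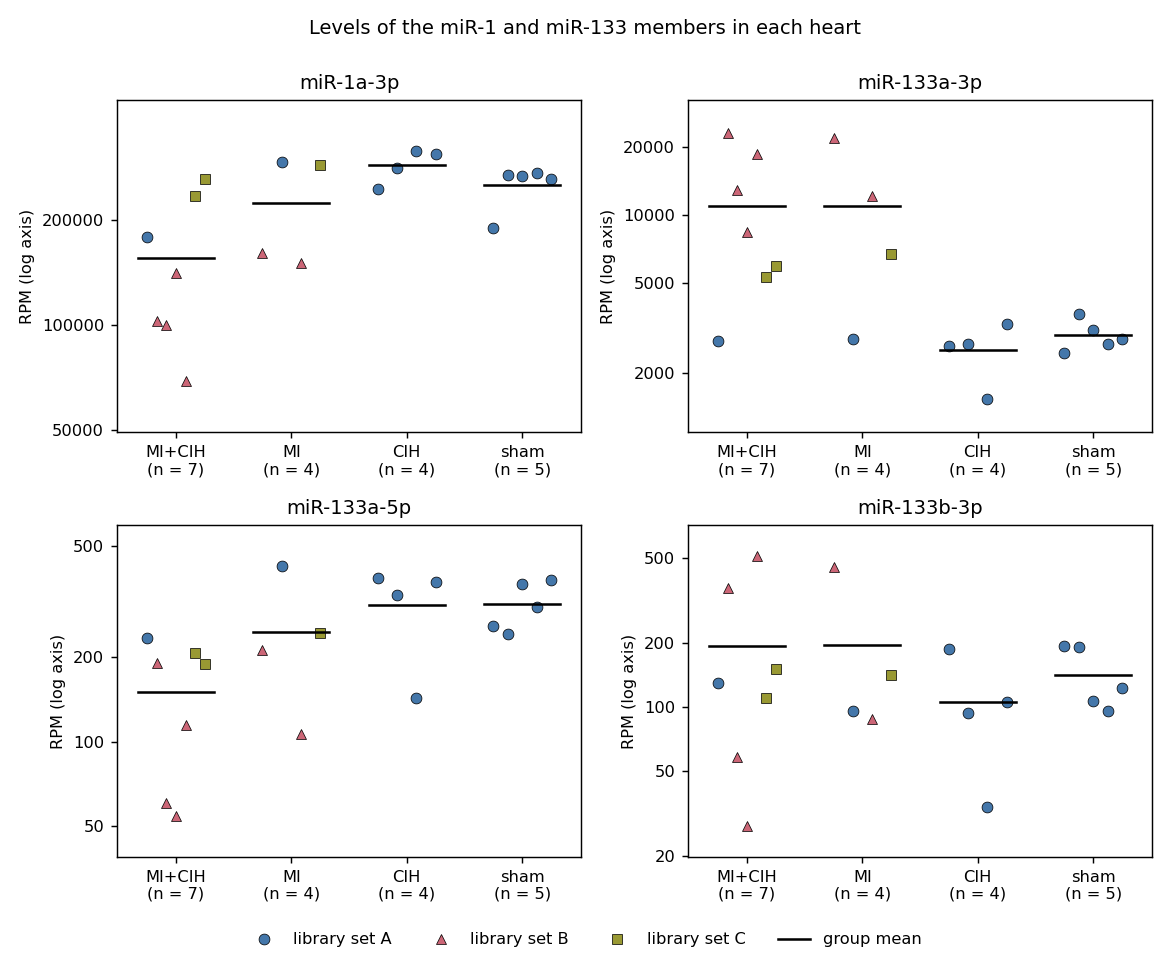
Level of each independent member in RPM (log axes) in MI+CIH, MI, CIH and sham hearts; each point is 1 library, the symbol gives its library set and the line is the group mean. miR-1a-3p is low and miR-133a-3p high in set B hearts, and every MI+CIH heart lies below every sham heart for miR-133a-5p, by a narrow gap.

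The second pair of miR-1 and miR-133a hairpins lies on the minus strand of chromosome 18 (GRCm38), Mir133a-1 at 10782909 to 10782976 and Mir1a-2 at 10785481 to 10785552. Both are in the non-coding host transcript Mir133a-1hg, antisense to the protein-coding gene Mib1, and Mir1b (10785446 to 10785567) overlaps Mir1a-2 on the plus strand. The remaining products of all these hairpins were close to the floor of 3 reads, which a count of 0 allows (0.165 to 1.51 RPM depending on the library). miR-1a-1-5p had reads in 18 of 20 libraries and a highest value of 1.63 RPM (15 reads), miR-1a-2-5p in 15 libraries with a highest value of 0.365 RPM, and miR-1b-3p in 12 libraries with a highest value of 0.850 RPM. None was tested. The 5p arms of miR-1 thus stayed at 15 reads or fewer beside 204998 to 5212642 reads of miR-1a-3p, while miR-133a-5p reached 6129 reads. miR-206-3p, from the locus of miR-133b, was at 2.44 to 437 RPM in MI+CIH hearts (median 89.9) and at 2.29, 0.138, 370 and 0.882 RPM in MI hearts. It was at 0 to 4.74 RPM in CIH hearts and 0 to 0.183 RPM in sham hearts, and it was at 0 in CIH 2, CIH 4 and sham 5. The neighbours of chromosome 1 thus did not always move together: in MI 1, the MI heart with the most miR-133b-3p (458 RPM), miR-206-3p stood at 2.29 RPM. In MI+CIH 5 both were at their highest, with 513 RPM of miR-133b-3p and 437 RPM of miR-206-3p.

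Hearts with both infarction and CIH were compared with hearts with infarction alone, the comparison that asks what CIH adds to an infarct. No member passed the threshold. The log2 change was -0.59 (SE 0.34) for miR-1a-3p, -0.74 (SE 0.49) for miR-133a-5p, -0.22 (SE 0.67) for miR-133b-3p and 0.06 (SE 0.55) for miR-133a-3p, with adjusted p of 0.895, 0.895, 0.919 and 0.970 in limma. Among all tested miRNAs 0 of 360 (0%) were called by limma, and 17 had an unadjusted p below 0.05. The calls of edgeR and DESeq2 also numbered 0. The median change of all miRNAs was 0.41, so the miR-1a-3p change was -1.01 and the miR-133a-5p change -1.16 relative to it. With the library set as a term the miR-1a-3p change was -0.54 with a smaller error (SE 0.17) and an unadjusted limma p of 0.00563 (adjusted 0.154). In that fit 48 of 360 miRNAs had an unadjusted p below 0.05, and 2 (0.556%) were called, no member among them. Compared inside the library sets, 7 of 7 MI+CIH hearts had less miR-1a-3p than any MI heart there, 5 of 7 had less miR-133a-5p and 4 of 7 had less miR-133a-3p. Only 1 MI heart was available in set A and 1 in set C. The same count was not made over all tested miRNAs, so how common such an order is remains unknown.

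Against CIH alone, miR-1a-3p fell and miR-133a-3p rose in hearts with MI+CIH. The second of these held on the RPM scale and not under 2 other scalings. miR-1a-3p had a log2 change of -1.02 (SE 0.34, limma adjusted p 0.0162), with means of 155624 RPM in MI+CIH and 287390 RPM in CIH. miR-133a-3p changed by 1.85 (SE 0.55, limma adjusted p 0.00903), to 11047 RPM in MI+CIH against 2541 RPM in CIH, but by -0.02 with TMM scaling and 0.17 with median-of-ratios scaling. miR-133a-5p missed the threshold at -1.13 (SE 0.49, limma adjusted p 0.0544), and miR-133b-3p stood at 0.55 (SE 0.67, limma adjusted p 0.486). Counting the miR-1b-5p copy, 3 members were called, where 56.9% of all tested miRNAs were: 1 rose, where 54.7% rose, and 2 fell, where 2.22% fell. In edgeR and DESeq2, which called 20.8% and 36.9% of all tested, the 3 members called were miR-1a-3p, its copy and miR-133a-5p. All 3 were lower, where edgeR called 37 of 360 tested miRNAs lower and DESeq2 41. The split of all limma calls, 197 higher and 8 lower in RPM, was 37 higher and 53 lower under TMM scaling. The median change of all miRNAs was 1.51, and relative to it the changes were -2.53 for miR-1a-3p, -2.64 for miR-133a-5p, -0.96 for miR-133b-3p and 0.34 for miR-133a-3p. Scaled by median of ratios, miR-133a-5p also fell (log2 change -2.79, limma adjusted p 0.00834).

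Against sham, miR-1a-3p and miR-133a-5p fell in hearts with MI+CIH, and miR-133a-3p rose on the RPM scale but not with TMM scaling (-0.02), median-of-ratios scaling (0.20) or edgeR (0.0069). The log2 change of miR-1a-3p was -0.82 (SE 0.32, limma adjusted p 0.0313) and that of miR-133a-5p -1.21 (SE 0.46, limma adjusted p 0.0307). miR-133a-3p changed by 1.60 (SE 0.51, limma adjusted p 0.0150) and miR-133b-3p by -0.05 (SE 0.63, limma adjusted p 0.943). With the copy, 4 members were called, where 56.7% of all tested miRNAs were: 3 fell, where 4.44% fell, and 1 rose, where 52.2% rose. In edgeR and DESeq2, which called 23.6% and 40.6% of all tested, the 3 members called were miR-1a-3p, its copy and miR-133a-5p. All 3 were lower, where edgeR called 33 of 360 tested miRNAs lower and DESeq2 41. The split of all limma calls, 188 higher and 16 lower in RPM, was 51 higher and 63 lower under TMM scaling. Most tested miRNAs thus stood higher in RPM, with a median change of 1.39, and miR-133a-3p was 0.21 above that median. The other rows lay below it, miR-1a-3p by -2.22, miR-133a-5p by -2.60 and miR-133b-3p by -1.45. Under TMM scaling the median of all miRNAs was -0.08, and the changes of miR-1a-3p and miR-133a-5p were -2.44 and -2.81 (limma adjusted p 0.00800 and 0.00736).

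The calls of miR-1a-3p and miR-133a-3p against CIH held when any 1 of the 20 libraries was left out (limma adjusted p up to 0.0445 and 0.0348), and so did that of miR-133a-3p against sham (up to 0.0338), which ended without a filter (0.0523). The change of miR-133a-5p against CIH was called without MI+CIH 1, 6 or 7, MI 2 or 3 or CIH 3 (down to 0.0294). The miR-1a-3p call against sham ended without MI+CIH 2, 3 or 5 or sham 2, 3, 4 or 5 (limma adjusted p up to 0.0686), when only the groups compared were fitted (0.0640) and without a filter (0.0789), while its log2 change kept between -0.65 and -0.97 in the 20 repeats. The miR-133a-5p call ended without MI+CIH 3, 4 or 5 or sham 3, 4 or 5 (limma adjusted p up to 0.0715) and without a filter (0.0829), with log2 changes between -0.999 and -1.35. With the library set as a term, no member was called in any comparison: against sham the changes were -0.39 for miR-1a-3p, -0.26 for miR-133a-5p and -0.13 for miR-133a-3p (limma adjusted p 0.680, 0.876 and 0.918), and 0 of 360 miRNAs were called. The part of depth, which was lowest in set B, in these differences was not tested.

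**Figure D2:**
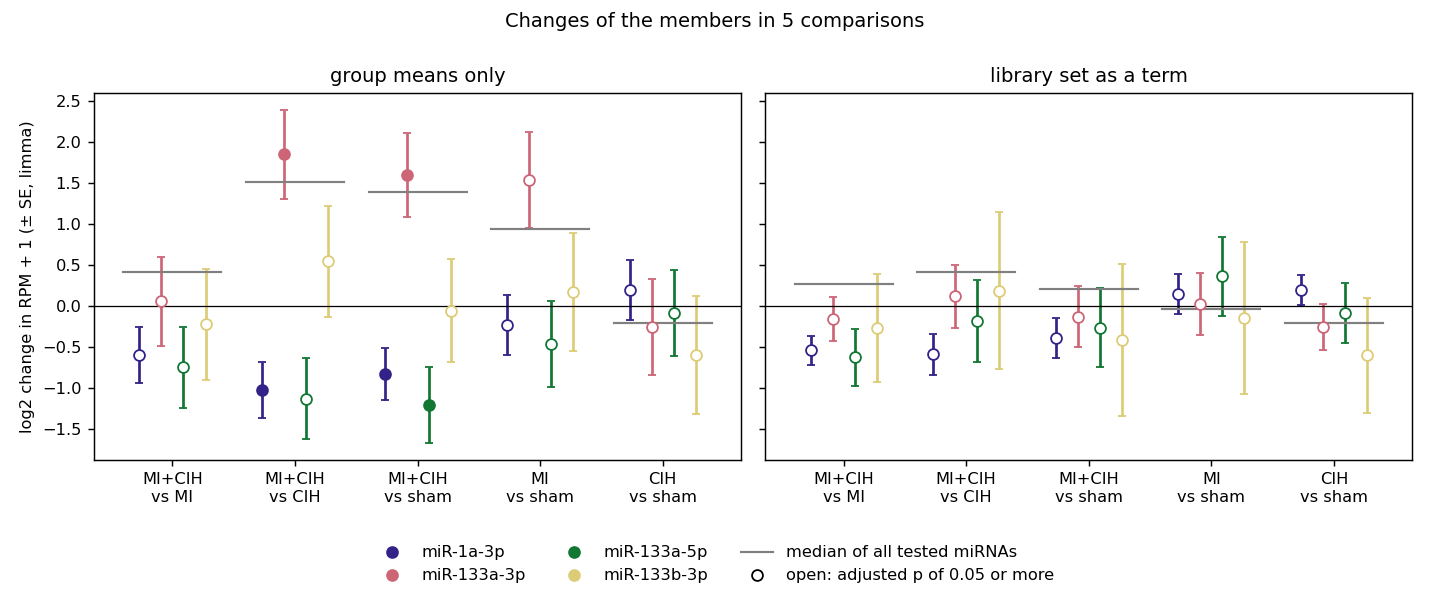
log2 change with its SE for each independent member in 5 comparisons, from limma without (left) and with (right) the library set as a term; filled points have an adjusted p under 0.05 and grey lines are the median of the 360 tested miRNAs. Filled points occur only on the left, in the comparisons of MI+CIH with CIH and with sham.

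**Figure D3:**
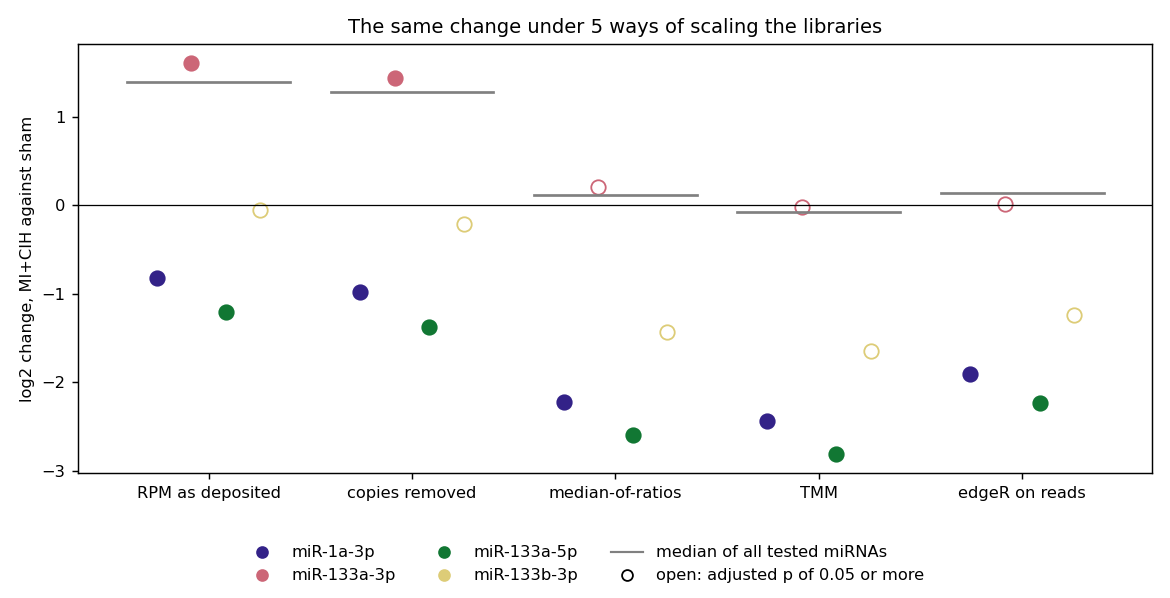
log2 change of each independent member in MI+CIH against sham under 5 ways of scaling the libraries, with the median of all tested miRNAs as grey lines and open points for an adjusted p of 0.05 or more. miR-1a-3p and miR-133a-5p lie below 0 and are called in all 5, while miR-133a-3p follows the median line.

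In hearts with infarction alone, no member passed the threshold against sham. miR-133a-3p came nearest with a log2 change of 1.54 (SE 0.59, limma adjusted p 0.125), 0.60 above the median of all miRNAs (0.94). miR-133a-5p stood at -0.46 (SE 0.53), miR-1a-3p at -0.23 (SE 0.36) and miR-133b-3p at 0.17 (SE 0.72), with limma adjusted p of 0.508, 0.650 and 0.868. limma called 0 of 360 miRNAs (0%), although 101 had an unadjusted p below 0.05. DESeq2 called 39 (10.8%), no member among them, and edgeR 0. Without MI 2, the infarcted heart of set A, miR-133a-3p rose by 2.07 (limma adjusted p 0.0136), in a fit that called 31.4% of all tested miRNAs (29.7% higher) with a median change of 1.32.

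In hearts with CIH alone, no member passed the threshold against sham either. The log2 changes were 0.20 (SE 0.36) for miR-1a-3p, -0.25 (SE 0.59) for miR-133a-3p, -0.08 (SE 0.53) for miR-133a-5p and -0.60 (SE 0.72) for miR-133b-3p, each with a limma adjusted p of 0.998. limma and edgeR called 0 of 360 miRNAs (0%), DESeq2 called 1 (0.278%), no member, and 1 had an unadjusted p below 0.05 by limma. The effect of CIH was also set against itself in infarcted and uninfarcted hearts: none of 360 miRNAs (0%) was called in this interaction by limma, where 14 had an unadjusted p below 0.05, or by either count-based tool, and so no member. For miR-1a-3p the interaction was -0.79 (SE 0.495, limma adjusted p 0.880).

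Ratios between members of the same library do not depend on its total. miR-133a-3p and miR-1a-3p are cut from the same precursor transcripts. For every 100 reads of miR-1a-3p, MI+CIH hearts held 1.55 to 27.1 reads of miR-133a-3p, with a median of 5.96, and MI hearts held 13.7, 0.968, 8.11 and 2.34. CIH hearts held 1.07, 0.961, 0.488 and 1.07, and sham hearts 1.30, 1.35, 1.16, 0.984 and 1.08. Every MI+CIH heart was thus above every sham and CIH heart, and MI 2, just below the sham hearts, was the lone infarcted heart not above them. Of the other 346 tested miRNAs set over miR-1a-3p in this way (1 RPM added), 20.2% separated MI+CIH from sham and 48.55% MI+CIH from CIH. The log2 difference of group means was 2.42 (SE 0.77) against sham and 2.87 (SE 0.89) against CIH, with exact permutation p of 0.0126 and 0.0121 (two-sided, adjusted over 15 ratio tests 0.0379 each). The median difference of the other 346 over miR-1a-3p was 2.23 against sham and 2.55 against CIH, with 147 and 141 of them above miR-133a-3p, so this ratio lay near the median of its kind. It was 0.65 (SE 1.07) against MI, with an exact permutation p of 0.539. MI against sham gave 1.77 (SE 0.77), at an exact permutation p of 0.0476 and an adjusted p of 0.102, and CIH against sham gave -0.45 (SE 0.26), at 0.0635 and 0.119.

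The ratio of the 2 arms of the miR-133a hairpins fell in hearts with MI+CIH. miR-133a-5p stood at 0.468% to 8.46% of miR-133a-3p in MI+CIH hearts (median 0.823%) and at 0.960%, 14.9%, 0.872% and 3.64% in MI hearts. CIH hearts had 14.6%, 12.3%, 9.34% and 11.3%, and sham hearts 10.6%, 6.67%, 11.8%, 11.2% and 13.4%. The 3 library sets did not overlap in this ratio, which was 6.67% to 14.9% in set A, 3.17% to 3.87% in set C and 0.468% to 0.960% in set B. The sets were made without these rows, but from miRNAs that include those closest to miR-133a-3p (miR-181a-5p and miR-191-5p). How many other ratios separate the sets was not counted. The log2 difference was -2.82 (SE 0.75) against sham and -2.99 (SE 0.84) against CIH, with exact permutation p of 0.00758 and 0.00606 (adjusted 0.0379 each). Of the other 346 miRNAs over miR-133a-3p, 17 had a lower difference against sham (median -0.20) and 10 against CIH (median -0.32). For the arms the difference was -0.81 (SE 1.09) against MI, with an exact permutation p of 0.473. MI against sham (-2.01, SE 0.87, exact permutation p 0.0714) and CIH against sham (0.17, SE 0.23, exact permutation p 0.540) did not pass.

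miR-133b-3p was set against its paralogue miR-133a-3p in the same way, with the reservation about reads that fit both. It stood at 0.328% to 4.69% of miR-133a-3p in MI+CIH hearts (median 2.07%) and at 2.07%, 3.37%, 0.722% and 2.10% in MI hearts. CIH hearts had 7.13%, 3.47%, 2.21% and 3.22%, and sham hearts 7.92%, 5.26%, 3.43%, 3.57% and 4.37%. The ratio fell in MI against sham by a log2 difference of -1.37 (SE 0.48): each MI heart lay below each sham heart, and the exact permutation p of 0.00794 is the smallest that 4 against 5 libraries allow (adjusted 0.0379). Of the other 346 miRNAs over miR-133a-3p, 81 had a lower difference in that comparison (median -0.58), and 6.36% separated the groups. For miR-133b-3p it was -1.66 in MI+CIH against sham (SE 0.67, exact permutation p 0.0253, adjusted 0.0631) and against CIH -1.30 (SE 0.77, exact permutation p 0.130, adjusted 0.195). It was -0.29 (SE 0.80, exact permutation p 0.703) in MI+CIH against MI and -0.36 (SE 0.40, exact permutation p 0.381) in CIH against sham.

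Of the 15 ratio tests 5 passed, all at the same adjusted p of 0.0379, and their margin is narrow. Leaving out 1 library at a time, the adjusted p of these 5 ran from 0.0238 to 0.0893, and each passed in 4 to 8 of 20 such repeats. The 4 results on MI+CIH ended without any 1 of MI+CIH 2 to 5, of the CIH hearts or of the sham hearts, with the exception of sham 2 for the arm ratio. Their differences stayed at 2.07 to 2.76 against sham and 2.52 to 3.21 against CIH for miR-133a-3p over miR-1a-3p, and at -2.54 to -3.24 and -2.71 to -3.41 for the arms. Leaving out a CIH heart left the data of MI+CIH against sham as they were (2.42, adjusted exact permutation p 0.0631), and there the adjustment over the 15 tests moved alone. The result on MI and sham passed without MI+CIH 1, 6 or 7 or MI 2 but not without any other heart. With an MI or sham heart left out, fewer libraries allow only a larger smallest p. Failures there are thus partly set by group size and do not show dependence on single hearts. With an MI+CIH or CIH heart left out, its data stayed the same and the adjustment moved alone. Set A alone, with 1 MI+CIH and 1 MI heart, could give no such result, since 1 against 5 libraries allows no p below 0.167.

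**Figure D4:**
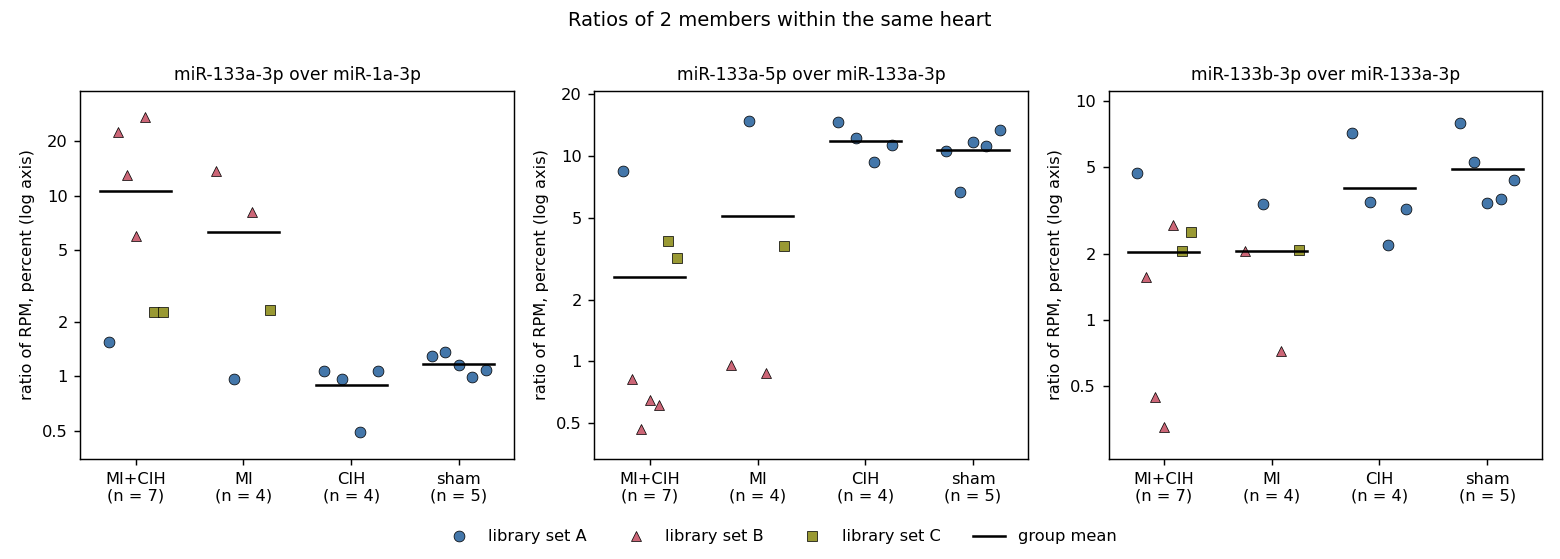
Ratio of 2 members in the same library, in percent on log axes, in MI+CIH, MI, CIH and sham hearts; each point is 1 library, the symbol gives its set and the line is the group mean. In the middle panel the 3 library sets occupy separate ranges, with set B between 0.468% and 0.960%.

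The 5p to 3p ratio of miR-133a was placed among those of the 84 hairpins with both arms tested, as a description. Its difference of -2.81 in MI+CIH against sham was the lowest of the 84, whose median was -0.14, and 2 hairpins had a larger difference in size. The largest was that of the cardiac hairpin miR-208a, at 3.77 in the other direction. The miR-133a ratio is followed in the other comparisons. It was again the lowest in MI+CIH against CIH (-2.98) and against MI (-0.80, median -0.03). In MI against sham 3 hairpins were lower than its -2.01, and in CIH against sham, at 0.17, it lay among the rest (65 lower). Between set B and set A the difference was -3.95, with 2 of the 84 lower, and between set C and set A it was -1.64, with 10 lower and 25 larger in size. Large differences in arm ratio were thus common between these libraries, in both directions.

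**Figure D5:**
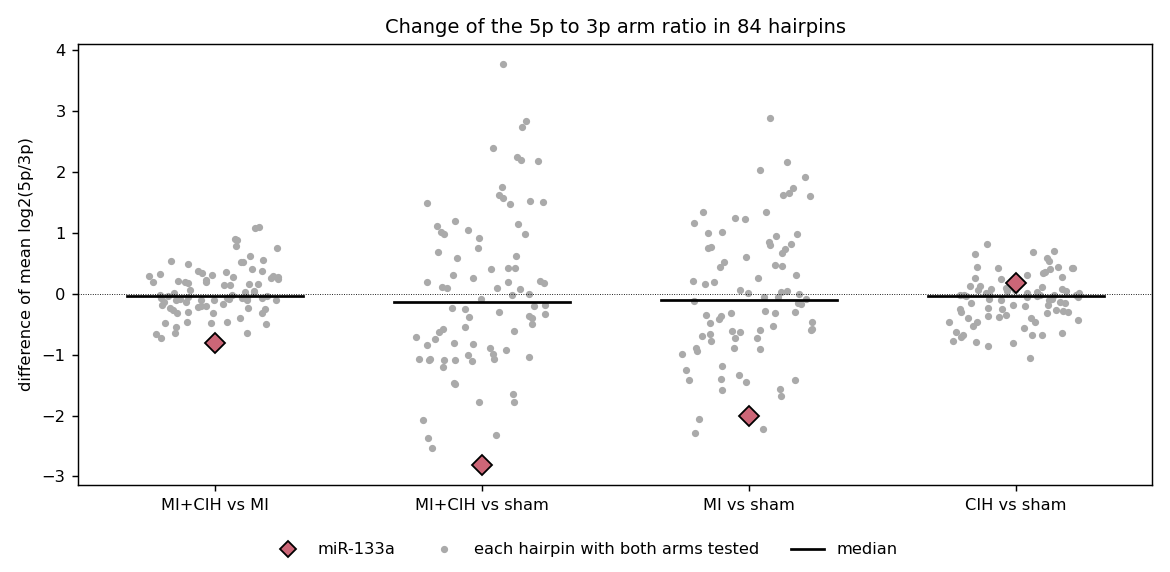
Difference between groups in mean log2 ratio of the 5p to the 3p arm (1 RPM added) for each of 84 hairpins, with miR-133a as a diamond and the median as a line. miR-133a is the lowest point in MI+CIH against MI and against sham, and lies with the others in CIH against sham.

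Other miRNAs were ranked by how closely they followed a member, measured as the SD over the 20 libraries of their log2 ratio to it (the smaller, the more alike). The 3 closest to miR-1a-3p were miR-30d-3p (0.47), let-7a-1-3p (0.51) and miR-340-3p (0.52), against a median of 1.63 over 347 miRNAs. miR-133a-5p ranked 6th for miR-1a-3p (0.62), whereas miR-133a-3p ranked 197th (1.73). The 3 closest to miR-133a-3p were miR-181a-5p (0.37), miR-191-5p (0.42) and miR-331-3p (0.47), against a median of 0.997, and its own 5p arm ranked 313th (1.82). Those 20 libraries share the differences between sets, and within the 11 libraries of set A the picture was another one. There miR-133a-3p lay 0.43 from miR-1a-3p (rank 67, median 0.63) and 0.345 from its 5p arm (rank 25, median 0.55), and its closest miRNA was miR-378a-5p (0.16), encoded in the metabolic regulator gene Ppargc1b.

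The other muscle-enriched miRNAs of a list of 14 names, 10 of them in the table and 5 tested, were read beside the family. Of the 5, miR-206-3p and miR-208a-5p reached the filter only with the infarcted hearts, so their fits are not read as results. In MI+CIH against sham 2 of the others fell, where 4.44% of all tested fell. These were miR-499-5p, an intronic product of Myh7b, which fell by 1.84 (limma adjusted p 0.00272), and miR-208a-3p, an intronic product of Myh6, which fell by 1.82 (limma adjusted p 0.0265). The 2 arms of the miR-208a hairpin went opposite ways in set B. There miR-208a-5p stood at 47.9 to 109 RPM, against 1.55 to 5.94 RPM in the other sets. miR-208a-3p stood there at 3.01 to 28.6 RPM, against 54.2 to 99.9 RPM in sham. The fall of miR-208a-3p is thus not a fall of both arms. miR-208b-3p stood at 0.71 (limma adjusted p 0.363). miR-499-5p averaged 908 ± 489 RPM in MI+CIH and 3048 ± 1013 RPM in sham. Against CIH, where 2.22% of all tested fell, miR-499-5p fell in MI+CIH (-2.16, limma adjusted p 0.00199). None of the 5 was called in MI+CIH against MI, MI against sham or CIH against sham, or in any of these comparisons with the library set as a term.

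Some sums of cell type marker miRNAs differed between the library sets and others overlapped, and none of the markers listed was at 0 throughout. The erythrocyte sum, for example, was 333 to 3282 RPM in set A, 108 to 5687 RPM in B and 793 to 2199 RPM in C. The 3 cardiac muscle markers (miR-208a-3p, miR-208b-3p and miR-499-5p) summed to 457 to 1868 RPM in MI+CIH, 1317 to 3987 RPM in MI, 1958 to 4695 RPM in CIH and 1892 to 4310 RPM in sham hearts. The 3 fibroblast markers (miR-199a-3p, miR-199a-5p and miR-214-3p) summed to 1263 to 6822 RPM in MI+CIH, 363 to 3935 RPM in MI, 187 to 423 RPM in CIH and 386 to 1844 RPM in sham hearts. The 5 leukocyte markers (miR-223-3p, miR-142a-3p, miR-142a-5p, miR-155-5p and miR-150-5p) summed to 361 to 1930 RPM in MI+CIH, 207 to 1599 RPM in MI, 248 to 505 RPM in CIH and 281 to 652 RPM in sham hearts. By set, the cardiac muscle sum was 1868 to 4695 RPM in A, 457 to 1527 RPM in B and 794 to 1600 RPM in C, and the leukocyte sum was 207 to 652 RPM in A, 1209 to 1930 RPM in B and 325 to 640 RPM in C. The 2 endothelial markers (miR-126a-3p and miR-126a-5p) summed to 5976 to 10970 RPM in A, 3162 to 7513 RPM in B and 24770 to 50260 RPM in C. The 6 epithelial markers, of a cell type that heart muscle should lack, summed to 98.7 to 1060 RPM in MI+CIH, 61.6 to 737 RPM in MI, 17.7 to 134 RPM in CIH and 22.0 to 93.9 RPM in sham hearts. The 3 erythrocyte markers (miR-451a, miR-144-3p and miR-144-5p) summed to 1122 to 5687 RPM in MI+CIH, 108 to 934 RPM in MI, 600.3 to 1986 RPM in CIH and 333 to 3282 RPM in sham hearts. The MI+CIH and MI sums did not overlap, as was so for 1 of 360 single miRNAs (0.278%), and the sham sums overlapped both. The share of other sums that separate these groups was not counted. The 3 smooth muscle markers (miR-143-3p, miR-145a-5p and miR-145a-3p) summed to 134700 to 261500 RPM in set A, 130600 to 272900 RPM in set B and 26240 to 42000 RPM in set C. The liver marker miR-122-5p was at 0.278 to 22.8 RPM in MI+CIH, 0.138 to 19.5 RPM in MI, 0.387 to 7.01 RPM in CIH and 0.439 to 0.877 RPM in sham hearts. The fibroblast sum was 187 to 1844 RPM in A, 1263 to 5709 RPM in B and 3935 to 6822 RPM in C. Low miR-1a-3p thus stood in set B beside a low cardiac muscle sum and high leukocyte markers, while the fibroblast sum reached its highest values in set C. Not every cardiac marker was low in set B: miR-208b-3p stood there at 3.52 to 26.5 RPM and overlapped sham. The 3 hearts of set C had a low cardiac muscle sum at a miR-1a-3p level near that of sham. That sum is mostly miR-499-5p, at 1490, 720 and 1202 RPM in MI+CIH 6, MI+CIH 7 and MI 4 (1751 to 4208 RPM in sham). In the same order miR-208a-3p had 93.2, 42.5 and 100 RPM (54.2 to 99.9 RPM in sham). miR-208b-3p had 16.5, 31.4 and 14.8 RPM (6.49 to 41.7 RPM in sham), so not every marker was low there. The part of cell composition in the family's differences was not tested.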

How the data were processed

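The 20 small RNA libraries were sequenced from mouse hearts. The labels' protocols give freezing of the heart, Trizol extraction and library preparation with NEBNext reagents. Bowtie, DESeq 1.8.3 and the mm10 build appear in the submitters' processing notes without a role, and the counting rules are not given in the sources used here. The authors deposited 1 table labelled TPM whose values are RPM: each column sums to 1000000 and no length enters. In each library 100% of values were whole multiples of 1 read (tolerance 0.05 reads), which recovers the reads. Of these, 7.79% to 31.6% stand in second copies of an entry (12 pairs, equal within 5%).

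Entries reaching 5 RPM in 4 or more libraries were tested, which left 360. The main test was limma 3.58.1 (R 4.3.3, trend) on log2(RPM + 1), all libraries in 1 fit with 4 group means and 16 residual degrees of freedom. Tests were two-sided, p-values were adjusted by Benjamini-Hochberg over the 360 within a comparison, and the threshold was 0.05. This scale understates the fold changes of low miRNAs. Log2 ratios of members in the same library went into exact permutation tests (SciPy 1.17.1), two-sided, adjusted over 15. Library sets came from average-linkage clustering of 354 tested miRNAs without the family and its relatives.

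Alternatives changed the pseudocount (0.5 and 5 RPM), the filter (none, or a mean of 50 RPM), the scaling (median of ratios, TMM), the copied entries (removed) or the libraries (the compared groups only, set A only, each library omitted once, sham 1 and MI 2 omitted together). Others added the library set or the replicate number to the model, or replaced limma by quasi-likelihood tests in edgeR 4.0.16 or by DESeq2 1.42.0, both on recovered reads, as the deposited unit is not a count. edgeR called 85 and DESeq2 146 miRNAs in MI+CIH against sham. The limma script was tested on simulated data. Intervals and floors cover counting error only, since reads are not independent molecules.

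Named are the 5 members, other entries of these hairpins and miR-206, a muscle-enriched list, the 3 miRNAs most like miR-1a-3p and miR-133a-3p, and the 5 most abundant miRNAs. The members and lists were chosen with earlier results of these data known.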

Additional observations from a re-analysis of the deposited data

Results flagged for a closer look

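In 28 groups of values, 4 levels and 3 ratios in each of the 4 groups, 3 held a library far from the others of its group by Dixon's test, which chance alone gives in about 1 of 20 groups. miR-1a-3p stood at 189056 RPM in sham 1, below the other sham hearts (261221 to 272753 RPM), and the sham mean without it was 267659 ± 4792 RPM (SD, n = 4). miR-133b-3p stood at 458 RPM in MI 1, above the other MI hearts (88.3 to 141 RPM). miR-133a-5p stood at 8.46% of miR-133a-3p in MI+CIH 1, the MI+CIH heart of library set A, above the other MI+CIH hearts (0.468% to 3.87%) and inside the sham range of 6.67% to 13.4%.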

How the results depend on the processing

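Pseudocounts of 0.5 and 5 RPM (1 RPM for the ratios) changed no count by more than 1.5 times. limma called 204 miRNAs in MI+CIH against sham, which became 135 without a filter, 92 at a mean of 50 RPM, 112 by median of ratios, 114 by TMM, 85 in edgeR, 0 with the library set as a term and 2 in set A alone. Its 4 members became 0 without a filter, 2 with only the groups compared, and 0 with the set term and 0 in set A. Against CIH 205 calls became 94 at 50 RPM, 97 by median of ratios, 90 by TMM, 75 in edgeR, 133 in DESeq2, 0 with the set term and 0 in set A, and 3 members became 0 and 0 under the last 2. In MI against sham 0 calls became 14 at 50 RPM, 6 with copied entries removed, 39 in DESeq2 and 114 without sham 1 and MI 2, with 1 member. DESeq2 called 1 in CIH against sham, the set term gave 2 in MI+CIH against MI, and set A alone gave 2 in the interaction. Ratios called, 2, 2 and 1 in the comparisons of MI+CIH with CIH, MI+CIH with sham and MI with sham, were 0 in each without sham 1 and MI 2, and 0 in set A alone, where 1 against 5 libraries cannot go below p = 0.167 in an exact permutation test.

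Changes that passed no test, and that of miR-133a-3p, changed sign as follows, for causes that were not tested. In MI+CIH against MI miR-133a-3p was -0.41 by median of ratios, -0.43 by TMM, -0.062 without copies, -0.16 with the set term, -0.036 in set A, -0.47 without sham 1 and MI 2, -0.42 in edgeR and -0.39 in DESeq2, and miR-133b-3p was 0.44 in set A. Against CIH miR-133a-3p in MI+CIH was -0.020 by TMM, and miR-133b-3p -1.11 by median of ratios, -1.30 by TMM, -1.01 in edgeR and -0.86 in DESeq2. Against sham it was -0.020 by TMM, -0.13 with the set term and -0.070 in set A, and miR-133b-3p was 0.073 without sham 1 and MI 2. In MI against sham the set term and set A gave 0.15 and 0.24 for miR-1a-3p, 0.36 and 0.47 for miR-133a-5p and -0.15 and -0.50 for miR-133b-3p. There miR-133a-3p was -0.034 in set A, and miR-133b-3p -0.75 by median of ratios, -0.95 by TMM, -0.77 in edgeR and -0.62 in DESeq2. In CIH against sham, in the order median of ratios, TMM, edgeR and DESeq2, miR-133a-3p was 0.025, 0.00070, 0.0033 and 0.024 and miR-133a-5p 0.19, 0.17, 0.21 and 0.21. Among log2 ratio differences, MI+CIH against MI without sham 1 and MI 2 gave -0.028 for miR-133a-3p over miR-1a-3p, 0.031 for the miR-133a arms and 0.015 for miR-133b-3p over miR-133a-3p. In set A, miR-133b-3p over miR-133a-3p was 0.48 against MI, 0.36 against CIH and 0.0062 against sham for MI+CIH, and MI against sham gave -0.27 for miR-133a-3p over miR-1a-3p and 0.51 for the arms.

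With 1 library left out at a time, calls ran from 148 to 239 in MI+CIH against sham, 162 to 234 against CIH and 0 to 3 against MI, 0 to 113 in MI against sham (113 without MI 2), and 0 to 0 elsewhere. Members called ran from 1 to 4, 3 to 4, 0 to 0 and 0 to 1 in those 4 comparisons, and ratios called from 0 to 3, 0 to 2, 0 to 0 and 0 to 3. Changes of sign lay within -0.47 to 0.52 (miR-133a-3p) and -0.55 to 0.30 (miR-133b-3p) in MI+CIH against MI, -0.38 to 0.31 (miR-133b-3p) in MI+CIH against sham, -0.36 to 0.43 (miR-133b-3p) in MI against sham and -0.22 to 0.25 (miR-133a-5p) in CIH against sham. Ratio differences in MI+CIH against MI ran from -0.028 to 1.25, -1.33 to 0.031 and -0.73 to 0.076, for miR-133a-3p over miR-1a-3p, the arms and miR-133b-3p over miR-133a-3p.

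Replicate numbers did not pair the libraries: same-numbered libraries of 2 groups had r of -0.711 to 0.867 (25 pairs, 10 above 0.1), and 4 of 18 correlated best with their own number. With the number as a block, miR-1a-3p changed by -1.15 in MI+CIH against sham (limma adjusted p 0.00498), and miR-133a-5p by -1.41 against CIH (limma adjusted p 0.0356). Ratios called were 0 in each of the 3 comparisons above with the block, where the smallest exact permutation p is 0.125 with 4 pairs and 0.0625 with the 5 pairs of MI+CIH and sham.

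Depth limits miR-133b-3p and miR-133a-5p most, with 55 and 108 reads in the shallowest libraries. The labels name no batch, infarct size or sampled region. All sham and CIH libraries lie in set A, so the set term rests on MI 2 and MI+CIH 1 for comparisons with them. RPM is relative, and miR-1a-3p with its copy takes much of the total. In RPM most miRNAs stood higher in the MI and MI+CIH groups than in sham. In set A alone, with 1 heart of each, the median log2 change against sham was -0.21 for MI and 0.35 for MI+CIH. miR-133a-3p was called in RPM but not under median-of-ratios or TMM scaling, edgeR or DESeq2.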
